A study of Mus musculus with 30 samples.

Results

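Uggt2, Tmem214, Adgrl3 and Zfp516 are mouse genes with at least 1 splicing event that moved in opposite directions when Nova2 was removed from Emx1-Cre and from Gad2-Cre cortical neurons. The 4 genes were chosen by their measured inclusion levels in these data, so their opposite directions are a description and not a finding. All rows of the authors' deposited splicing tables that carry one of the 4 symbols were taken, whatever the event type. They hold 53 rows of 6491 and 24 distinct events of 4923, in 4 of the 1829 genes listed. Of the 24 events, 4 belong to Uggt2, 5 to Tmem214, 14 to Adgrl3 and 1 to Zfp516. Of these, 15 are listed in the authors' deposited Emx1-Cre table, 22 in that of Gad2-Cre neurons and 16 in the table that sets the controls of both classes against each other. No row of the 4 genes stands among the 603 rows of the authors' deposited Purkinje table.

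The 4 groups behind these values were sorted from cortex at embryonic day 18.5 and hold 3 samples each, on a C57BL/6J background, with ribosomal RNA removed. Both classes have a control, labelled wild type and carrying the same Cre, and a conditional Nova2 knockout (cKO), named for the same Cre driver. Emx1-Cre is active in the dorsal telencephalon, where excitatory cortical neurons and also glia arise, and Gad2-Cre in GABAergic inhibitory neurons. Neither the reporter used for sorting nor whether the 3 samples came from separate animals is stated in the labels, so the authors' p-values may measure technical spread. The other group pairs are Pcp2-Cre Purkinje cell layer at postnatal day 28 (6 samples) and 12 samples of cortex and spinal cord that are not analysed here.

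NOVA2 is a neuronal RNA-binding protein that recognises YCAY tetramers in pre-mRNA and promotes or blocks the use of nearby exons, depending on where it binds. UGGT2 belongs to the glucosyltransferases of the endoplasmic reticulum that add glucose back to incompletely folded glycoproteins and so return them to the calnexin cycle. TMEM214 is a membrane protein of the endoplasmic reticulum with a described role in cell death under stress there. ADGRL3 (latrophilin 3) is an adhesion G-protein-coupled receptor of neurons that binds FLRT and teneurin proteins on the opposing cell, and its cytoplasmic tail is variable by splicing. ZFP516 is a zinc-finger transcriptional regulator that has been found with KDM1A and CtBP corepressor proteins.

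An inclusion level, from 0 to 1, sets the form with the alternative region against the other form of the same event, such as skipping. It is not a share of all RNA of the gene, and the levels of overlapping forms can add to more than 1. The authors' deposited tables give 1 pooled level per group. No value per sample exists in them, so no SD can be given, and the FDR quoted is the authors' own. A table lists an event only at an FDR of at most 0.05 and a difference of at least 0.1. Its coverage is 1 number per comparison, whose definition is not stated and which is 20.0 or more, and sample depth is unknown. Each level is a share over pooled cells, so a mixture of cells with high and with low inclusion cannot be told apart from an intermediate level in every cell. The tables hold splicing and not expression, so the labelled classes could not be checked against markers. Of 7 excitatory markers none has a listed event in either cKO table, of 8 inhibitory markers 1 has a listed event in the Emx1-Cre and 2 in the Gad2-Cre table, and of 12 markers of other cells none has.

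The sequences below show the stretches on which the results turn, 5′ to 3′ on the transcript strand, read from GENCODE M21 transcripts on build GRCm38 (mm10). In Uggt2 only the start of the exon is given, with the stop codon that it puts in frame in capitals, at bases 5 to 7. In Tmem214 the whole intron is given, with the exon of 44 nt that lies inside it (bases 93 to 136) in capitals. In Adgrl3 the longer form of the exon near the 3′ end is given, with the 18 bases of the shorter form in capitals, followed by a separate exon of 27 nt that behaved differently.
Uggt2 exon, first 30 bases, chr14:119032758-119032787, minus strand: gattTAGgtcaatgggagacagatgaagag
Tmem214 intron of 274 nt, chr5:30872769-30873042, plus strand: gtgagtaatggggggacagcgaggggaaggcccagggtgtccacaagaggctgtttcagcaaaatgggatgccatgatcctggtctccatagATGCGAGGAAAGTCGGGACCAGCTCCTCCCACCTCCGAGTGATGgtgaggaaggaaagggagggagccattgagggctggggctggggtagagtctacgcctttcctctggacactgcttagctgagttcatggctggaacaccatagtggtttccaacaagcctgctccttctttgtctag
Adgrl3 exon of 52 nt, chr5:81792361-81792412, plus strand: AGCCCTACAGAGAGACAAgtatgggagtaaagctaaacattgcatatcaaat
Adgrl3 exon of 27 nt, chr5:81757986-81758012, plus strand: ctatgaggataacagacccttcatcaa

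At the opposite events of all 4 genes the class with the higher control level fell without Nova2 and the class with the lower control level rose. The authors' deposited cKO tables share 14 events of the 4 genes, of which 12 moved in opposite directions and 2 in the same direction. Over all genes the 2 tables share 823 events, and 2.55% of these moved in opposite directions, 21 events in 11 genes. The 4 genes were picked from these 11, so nothing is read from that contrast. In each of the 12 opposite events the Emx1-Cre level moved toward the Gad2-Cre control level, and the Gad2-Cre level moved toward the Emx1-Cre control level. In none of the 12 did a cKO level pass the other class's control level, and in all 12 the order of the classes was turned in the cKO groups. The order was also turned in 17 of the 21 opposite events of all genes. Among the 802 events that moved in the same direction it was turned in 267 (33.3%). The gap between the classes in these 12 events was 0.263 to 0.501 in controls and 0.0634 to 0.161 in cKO, from the levels in the authors' deposited tables.

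The control samples of each class enter both its own cKO table and the table of controls, so the gap between controls and the changes in cKO are not independent measures. For comparison, the 802 events that moved in the same direction in both of the authors' deposited cKO tables had a median gap of 0.0484 in controls and 0.0568 in cKO. The 12 opposite events of the 4 genes had a median gap of 0.283 in controls and 0.0757 in cKO. The 9 opposite events of other genes had medians of 0.278 and 0.0802. The 12 were picked on these same levels and 9 of them repeat 1 Adgrl3 exon, so nothing particular to the 4 genes is read from the contrast with the 802. No table compares the cKO groups with each other, so the remaining gaps between them have no test. In the plot of changes in both classes, the 12 events stand in the quadrants where the signs differ.

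**Figure D1:**
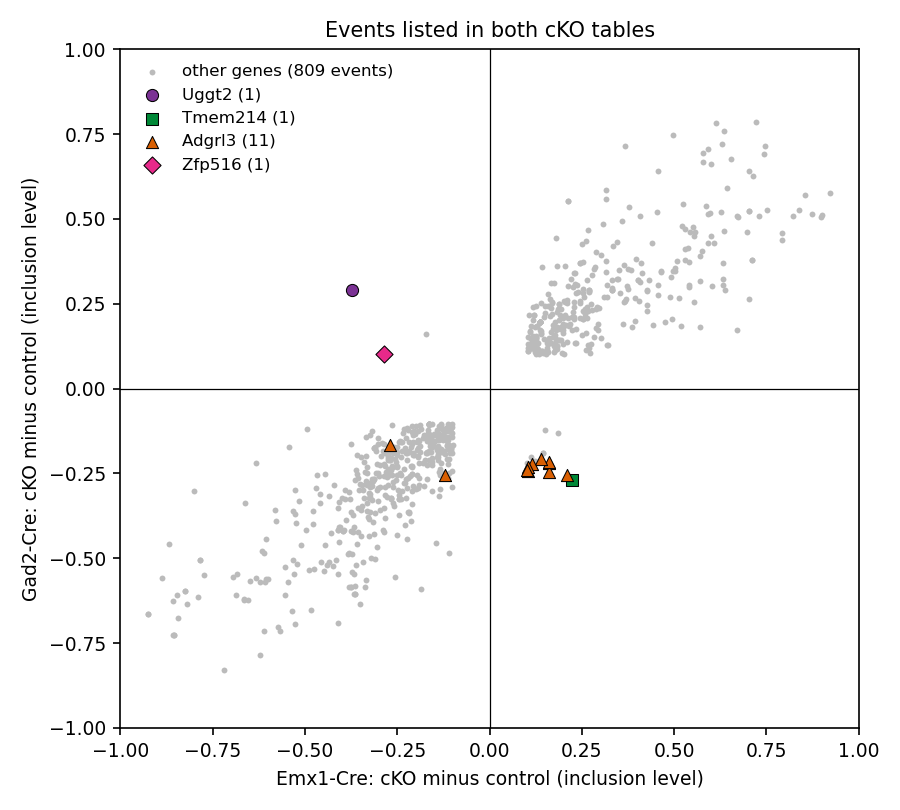
Change in inclusion level (cKO minus control) in Emx1-Cre neurons on the horizontal axis and in Gad2-Cre neurons on the vertical axis, 1 point for each of the 823 events listed in both of the authors' cKO tables. Uggt2 and Zfp516 lie at the upper left, Tmem214 and 9 Adgrl3 events at the lower right, and 2 Adgrl3 events at the lower left with the events that fell in both classes.

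Uggt2 showed the largest gap between the classes. Its 46 nt exon (chr14:119032742-119032787, minus strand) stood at 0.864 in Emx1-Cre controls and 0.492 in Emx1-Cre cKO in the authors' deposited tables. The same exon stood at 0.363 in Gad2-Cre controls and 0.652 in Gad2-Cre cKO. Emx1-Cre controls were thus the highest of the 4 groups and Gad2-Cre controls the lowest, with both cKO levels between them. It fell by 0.372 in Emx1-Cre neurons, with an authors' deposited FDR of 0.0294 at a coverage of 33.0, and rose by 0.290 in Gad2-Cre neurons, with an FDR of 0.00381 at a coverage of 41.0. The gap between the classes was 0.501 in controls (authors' deposited FDR 4.74e-05), and in cKO the Gad2-Cre level was the higher by 0.161. More change than this was listed for 22.8% of the 912 cassette exons of the authors' deposited Emx1-Cre table and for 35.0% of the 726 of the Gad2-Cre table.

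The other 3 Uggt2 events are longer forms of this exon and not separate exons, as the map of Uggt2 and Tmem214 shows. The 159 nt form (chr14:119032629-119032787) begins at the same base as the 46 nt form and rose from 0.408 to 0.721 in Gad2-Cre neurons in the authors' deposited table, with an FDR of 0.00152. A form of 152 nt (chr14:119032636-119032787) that shares this start rose there from 0.356 to 0.657. Their Emx1-Cre control levels, in the authors' deposited table of controls, were 0.889 and 0.860. So both Gad2-Cre changes were again toward the Emx1-Cre control level, but the authors' deposited Emx1-Cre table lists neither form, and no Emx1-Cre cKO level is at hand for them. A second form of 152 nt (chr14:119032629-119032780) starts at the 8th base of the exon and rose from 0.121 to 0.429 in the authors' deposited Gad2-Cre table only, at a coverage of 26.0. All 4 forms are set against skipping between the same flanking exons, so their rises in Gad2-Cre neurons are not independent.

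GENCODE holds the 159 nt exon in 1 transcript, which is annotated for nonsense-mediated decay, and a protein-coding transcript across the region skips it. The 46 nt form, which gave the only opposite event of the gene, and both forms of 152 nt match no GENCODE exon exactly. Placed between the flanking exons of that coding transcript, the forms with the shared start meet the TAG in capitals above, after 942 of the 1504 codons (62.6%). The form that starts at the 8th base loses that codon and meets a stop at its own bases 17 to 19, after 946 codons. The included forms therefore carry a premature stop, with 15 exon junctions after it, and the level of the skipped form is that of the full reading frame. From the levels above, the full-frame share at the 46 nt exon was the smaller in Emx1-Cre controls and the larger in Gad2-Cre controls. Whether transcripts were removed by decay was not tested, and the tables hold no expression values.

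**Figure D2:**
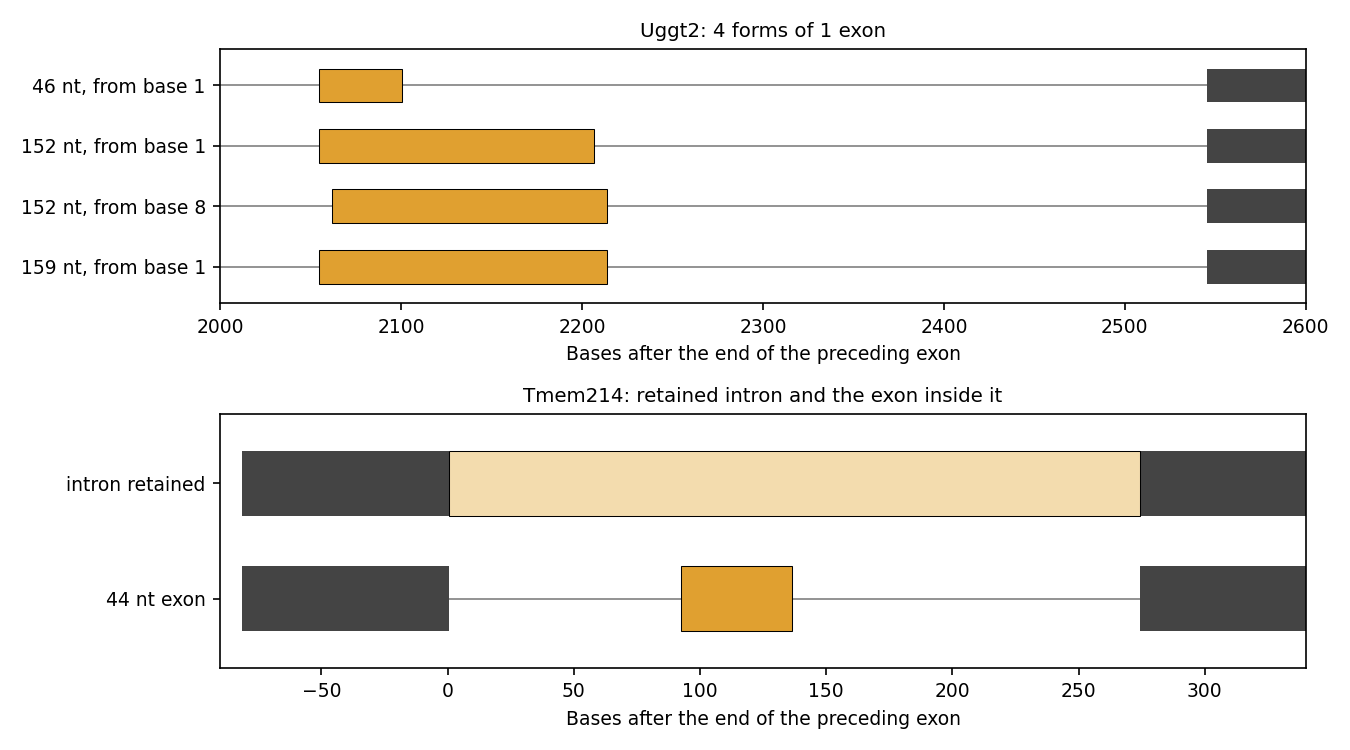
Position of the alternative regions in bases after the end of the preceding exon, for the 4 Uggt2 forms (upper panel, orange) and for the Tmem214 intron (pale) with the 44 nt exon inside it (orange, lower panel). Dark boxes are the flanking exons and lines are spliced sequence. The Uggt2 forms differ at their ends while 3 of the 4 share their first base, and the Tmem214 exon occupies bases 93 to 136 of the intron.

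Tmem214 was listed for intron retention, in the direction opposite to Uggt2. Its intron of 274 nt (chr5:30872769-30873042, plus strand) was retained at a level of 0.274 in Emx1-Cre controls and 0.496 in Emx1-Cre cKO in the authors' deposited tables. In Gad2-Cre neurons the level was 0.696 in controls and 0.426 in cKO. Retention was thus highest of the 4 groups in Gad2-Cre controls, and in Emx1-Cre cKO the retained and the spliced form stood nearly level. It rose by 0.223 in Emx1-Cre neurons, with an authors' deposited FDR of 0.0227 at a coverage of 62.9, and fell by 0.270 in Gad2-Cre neurons, with an FDR of 0.0207 at a coverage of 45.9. The gap between the classes was 0.423 in controls (authors' deposited FDR 0.000442), and in cKO the Emx1-Cre level was the higher by 0.0699. Levels of intron events are read as the retained share, since the retained isoform is the one named first. The median control level of introns was 0.216 in the authors' deposited Emx1-Cre table and 0.249 in the Gad2-Cre table. These medians alone do not settle that reading.

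The intron contains a cassette exon of 44 nt (chr5:30872861-30872904), which GENCODE holds in 1 noncoding transcript. Its level was 0.156 in Emx1-Cre controls, 0.334 in Gad2-Cre controls and 0.195 in Gad2-Cre cKO in the authors' deposited tables. The fall in Gad2-Cre neurons had an FDR of 0.0183 at a coverage of 21.9, and the authors' deposited Emx1-Cre table does not list the exon. An alternative 5′ splice site event of the preceding exon differed between the controls only, at 0.237 in Emx1-Cre and 0.468 in Gad2-Cre, with an authors' deposited FDR of 0.0155 at a coverage of 20.6, for the isoform the table names first. The retained intron and the 44 nt exon lie in the same 274 bases. The alternative 5′ splice site event is drawn with this intron, and its other splice site was not located. Reads can serve more than 1 of these 3 events. In all 3 the Gad2-Cre control level was the higher.

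Other Tmem214 introns moved both ways in Gad2-Cre neurons. The intron of 150 nt (chr5:30871571-30871720) fell from 0.522 to 0.279 in the authors' deposited Gad2-Cre table, with an FDR of 0.0192 at a coverage of 51.0. The intron of 821 nt (chr5:30874969-30875789) rose from 0.0622 to 0.225 in the same authors' deposited table, with an FDR of 0.0474 at a coverage of 32.9. Neither stands in the Emx1-Cre table or in the table of controls, so the 3 listed introns of the gene did not all move the same way in Gad2-Cre neurons.

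The 274 nt intron is not a multiple of 3 and, if kept in a finished transcript, ends the reading frame at once. GENCODE holds it inside 1 transcript, of the retained-intron type, and in no coding sequence. Whether intron reads came from RNA not yet spliced was not tested. Inserted into a coding transcript of GENCODE, it meets an in-frame TGA at its bases 2 to 4, after 303 of 687 codons (44.1%). Inserted alone, the 44 nt exon shifts the frame and the first stop falls in the next exon, after 328 codons (47.7%). The spliced form without either is that of the annotated protein, and by the levels above it was the major form of the intron event in Emx1-Cre controls.

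The NOVA tetramer was searched on the transcript strand only, with overlapping matches counted. It was taken as TCAT or CCAT, and equally with a final cytosine as TCAC or CCAC, and it occurs 7 times in the Tmem214 intron. Of the 396 introns listed in the authors' deposited cKO tables, 144 are at least as long and lie inside a GENCODE exon, and their first 274 bases hold a median of 4.0 tetramers, with at least 1 in 98.6% and 7 or more in 17.4%. No tetramer occurs in the 52 nt Adgrl3 exon or the 46 nt Uggt2 exon, while 53.4% and 46.3% of coding-gene exons of these lengths hold at least 1. The 27 nt Adgrl3 exon holds 1, and 164 of 546 exons of its length hold at least 1. These counts describe the bases searched and not binding, and the introns around the exons were not searched. Of the 46 nt Uggt2 exon only the first 30 bases are printed above.

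Adgrl3 gave 9 of the 12 opposite events, and all 9 contain the same exon start near the 3′ end of the gene. Its 18 nt exon (chr5:81792361-81792378, plus strand) stood at 0.439 in Emx1-Cre controls and 0.650 in Emx1-Cre cKO in the authors' deposited tables. In Gad2-Cre neurons it stood at 0.798 in controls and 0.543 in cKO. Gad2-Cre controls were again the highest of the 4 groups and Emx1-Cre controls the lowest. The exon rose by 0.211 in Emx1-Cre neurons, with an authors' deposited FDR of 0.00734 at a coverage of 89.7, and fell by 0.255 in Gad2-Cre neurons, with an FDR of 0.0361 at a coverage of 47.8. The gap between the classes was 0.360 in controls (authors' deposited FDR 0.000730) and 0.106 the other way in cKO. Of the cassette exons, 56.5% changed by more than this in the authors' deposited Emx1-Cre table and 43.0% in the Gad2-Cre table.

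The 52 nt form (chr5:81792361-81792412) uses the same start and a later 5′ splice site. It stood at 0.566 in Emx1-Cre controls, 0.706 in Emx1-Cre cKO, 0.838 in Gad2-Cre controls and 0.630 in Gad2-Cre cKO in the authors' deposited tables. Its rise in Emx1-Cre neurons had an authors' deposited FDR of 0.0298 and its fall in Gad2-Cre neurons an FDR of 0.0402. The shorter and the longer form thus moved together in each class, each being set against skipping. They share their start and the skipped form, so their changes are not independent. From the tables it cannot be said which of the 2 splice sites was used more, since no event sets them against each other.

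The remaining 7 opposite Adgrl3 events are tandem cassettes. In them this exon is joined to an earlier exon of 129, 119 or 39 nt, or to a 48 nt form with the start of the 129 nt exon. These tandems are nested on the same exon and flanked by the same exons, so they repeat its measurement and do not add to it. With the 18 nt form, 3 tandems stood at 0.0733 to 0.161 in Emx1-Cre controls, 0.233 to 0.321 in Emx1-Cre cKO, 0.348 to 0.459 in Gad2-Cre controls and 0.132 to 0.213 in Gad2-Cre cKO in the authors' deposited tables. With the 52 nt form, 4 tandems stood at 0.300 to 0.352, 0.401 to 0.456, 0.573 to 0.623 and 0.331 to 0.381 in the same order of the authors' deposited groups. The rise in Emx1-Cre neurons was 0.160 in each tandem with the 18 nt form and 0.101 to 0.114 with the 52 nt form. The exon of 119 nt (chr5:81782863-81782981) is held by no GENCODE transcript of Adgrl3. The 48 nt form lies inside the 129 nt exon and matches no GENCODE exon exactly.

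**Figure D3:**
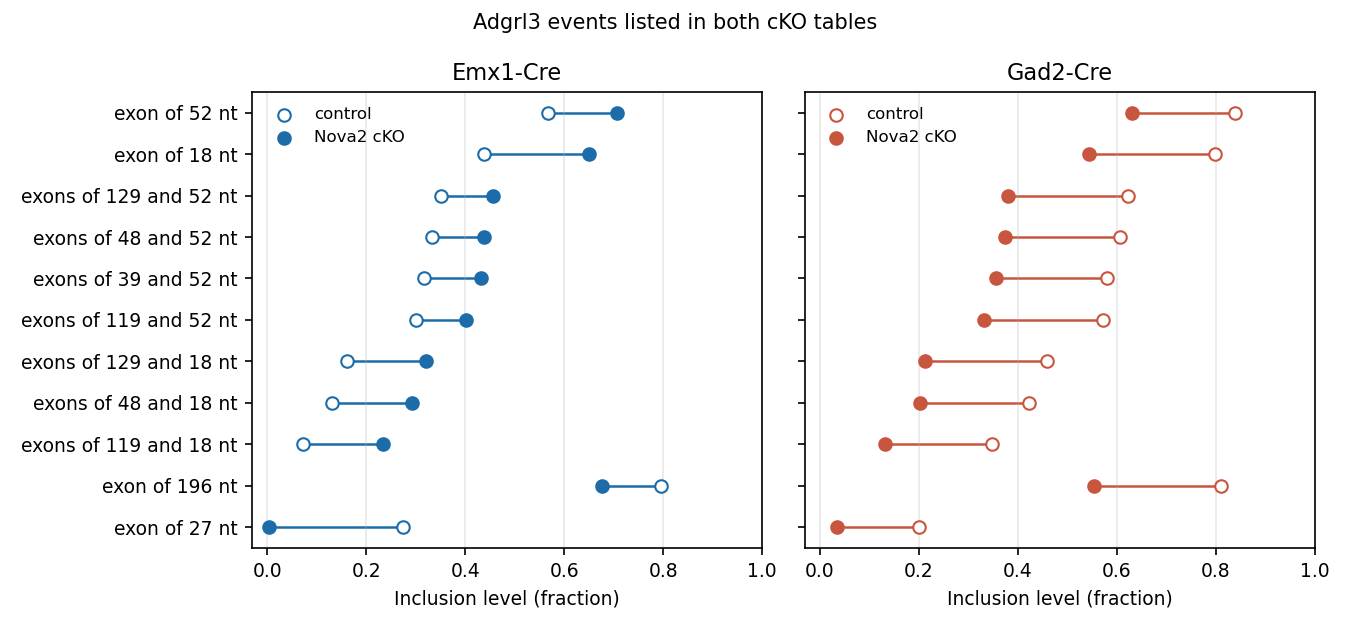
Inclusion level (horizontal axis, fraction) of the 11 Adgrl3 events listed in both cKO tables, in Emx1-Cre neurons (left) and Gad2-Cre neurons (right). Open points are the authors' control level and filled points their cKO level, 1 value per group. In the upper 9 events the filled point lies to the right of the open point in Emx1-Cre and to the left in Gad2-Cre, and in the lower 2 it lies to the left in both.

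A tandem of the 39 and 18 nt exons lies just outside the count of opposite events. It rose from 0.103 to 0.282 in the authors' deposited Emx1-Cre table and stood at 0.364 in Gad2-Cre controls, but the Gad2-Cre table does not list it. Just inside, the tandem of the 119 and 52 nt exons rose by 0.101 in the authors' deposited Emx1-Cre table, against the limit of 0.1, and its fall in the Gad2-Cre table had an FDR of 0.0436, against the limit of 0.05.

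Other exons of Adgrl3 did not follow this pattern. The exon of 27 nt (chr5:81757986-81758012) fell from 0.275 to 0.00445 in Emx1-Cre neurons, with an authors' deposited FDR of 3.2e-10 at a coverage of 88.8. In Gad2-Cre neurons the same exon fell from 0.201 to 0.0360, with an authors' deposited FDR of 0.00208 at a coverage of 43.8. It was nearly lost in both classes, and the table of controls does not list it. An exon of 196 nt (chr5:81329765-81329960) in the 5′ part of the gene also fell in both, from 0.795 to 0.675 in Emx1-Cre and from 0.810 to 0.555 in Gad2-Cre neurons in the authors' deposited tables. This 196 nt form matches no GENCODE exon exactly, while the form of 204 nt, which starts at chr5:81329757, is an exon of 16 GENCODE transcripts. The 204 nt form fell from 0.903 to 0.742 in the authors' deposited Gad2-Cre table only. A mutually exclusive event next to it rose from 0.177 to 0.310 there for its first-named isoform, with an authors' deposited FDR of 0.0215. So within Adgrl3 the exon near the 3′ end moved toward the other class, while the 27 nt and 196 nt exons started at like control levels and fell in both.

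The 18 nt exon keeps the reading frame and is coding in GENCODE, in 3 of 20 protein-coding Adgrl3 transcripts, while the 52 nt form stands in 8. In transcripts with the 18 nt form and without the exon, the next exon carries 797 coding bases. With the 52 nt form it carries 58, because the frame is shifted and ends earlier. The annotated end of the receptor's cytoplasmic tail thus differs between the forms. An antisense gene, Gm16054 (chr5:81791909-81798426), spans both forms of the exon and the next exon, and an annotated exon of it overlaps 4 bases of the 18 nt exon. Strandedness is not stated in the labels, so reads of the 2 strands may not have been told apart across this stretch.

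Zfp516 had a single listed event, of the mutually exclusive type. Which isoform the level of such an event, or of an alternative 5′ splice site event, counts is not stated. The one named first was assumed throughout. On that reading the first-named isoform of Zfp516 stood at 0.800 in Emx1-Cre controls and 0.513 in Emx1-Cre cKO in the authors' deposited tables. In Gad2-Cre neurons it stood at 0.476 in controls and 0.578 in cKO. As in Uggt2, the Emx1-Cre controls were the highest of the 4 groups, and the cKO groups lay between the controls. It fell by 0.287 in Emx1-Cre neurons, with an authors' deposited FDR of 1.88e-09, and rose by 0.102 in Gad2-Cre neurons, with an FDR of 1.92e-07. The rise is just inside the limit of 0.1, and 98.0% of the mutually exclusive events in the authors' deposited Gad2-Cre table changed by more. Its coverage was 24.0 in the authors' deposited Emx1-Cre and 21.0 in the Gad2-Cre table, near the minimum of 20.0. The control levels differ by 0.324, yet the authors' deposited table of controls does not list the event, so no FDR is given for that gap.

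The deposited intervals draw this Zfp516 isoform (chromosome 18, plus strand) as an exon of 114 nt, the exon of 1926 nt at chr18:82955524-82957449 and an exon of 120 nt, without the exon of 1455 nt that lies between the last 2. An annotated coding transcript holds both large exons, with 51.0% of its 3471 coding bases in the exon of 1926 nt and 41.9% in that of 1455 nt. The isoform named second is not drawn, and the event is reported here only as the level of the isoform named first.

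**Figure D4:**
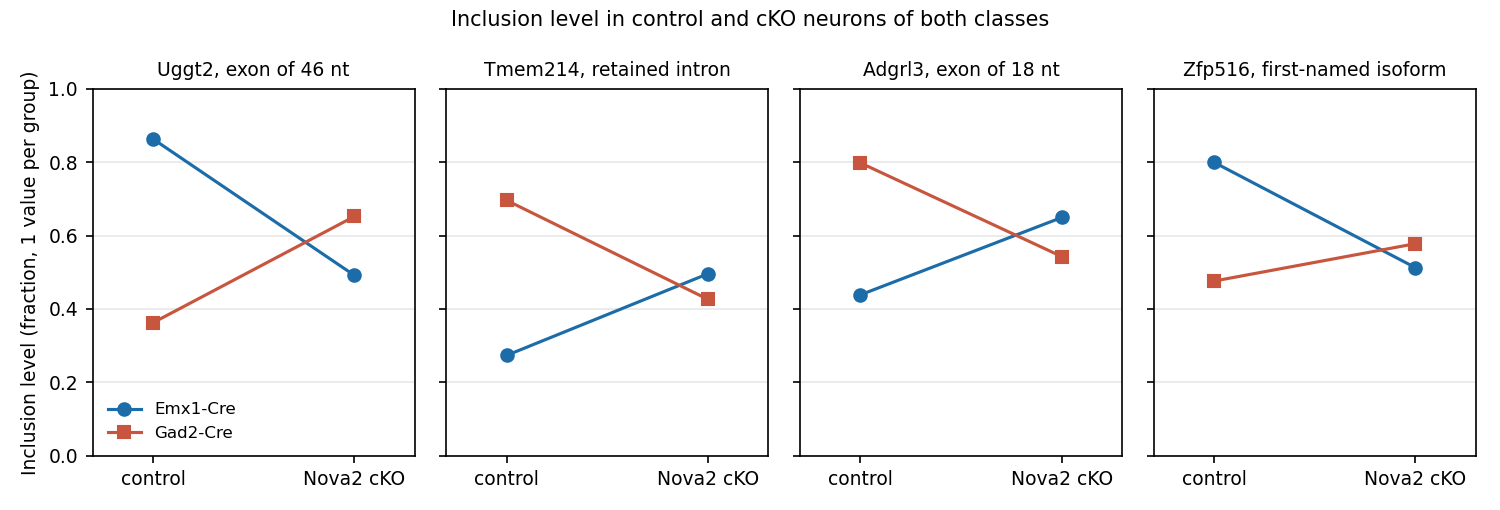
Inclusion level (vertical axis, fraction, the authors' single value per group) in control and Nova2 cKO neurons, for the event of each gene with the largest summed difference. Circles and blue lines are Emx1-Cre and squares and red lines Gad2-Cre. In each panel the lines cross, and no cKO point lies beyond the control point of the other class.

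Counted over all their listed events, 11 of 15 events of the 4 genes were higher in cKO in the authors' deposited Emx1-Cre table, where 48.4% of all events were, and 7 of 22 in the Gad2-Cre table, where 41.4% were. In the authors' deposited table of controls 13 of 16 were higher in Gad2-Cre, where 63.7% of all events were. The first counts rest on the nested Adgrl3 events, since 10 of the 11 are Adgrl3 events, and the rule used these contrasts. An FDR of at most 0.01 in both of the authors' deposited cKO tables was met by 74.4% of the shared events and by 1 of the 12 opposite events, in Zfp516. A difference of at least 0.2 in both was met by 53.3% of the shared events and by 3 of the 12, in Uggt2, Tmem214 and Adgrl3. Coverage of at least 50 in both was met by 69.6% of the shared events and by none of the 12. The median coverage of the 12 was 76.7 in the authors' deposited Emx1-Cre table and 43.0 in the Gad2-Cre table, against 110.8 and 87.0 for the 802 events that moved the same way.

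Genes known to act with the 4 were followed in lists, each gene by its listed event with the largest difference. Over all listed genes that event was higher in cKO in 51.1% of the 1044 genes in the authors' deposited Emx1-Cre table and in 48.1% of the 880 in the Gad2-Cre table. The tables do not state how many genes were tested, so the share of all genes that is listed is unknown, and no list's number of listed genes is read as high or low. Of 23 latrophilins, their partners and related genes, the Emx1-Cre table lists 9, of which 1 was higher and 8 were lower in cKO. For Unc5b, Unc5d and Gnao1 the event is mutually exclusive or an alternative 5′ splice site, so its sign depends on the isoform named first. With cassette exons only, the Emx1-Cre table lists 5, of which 1 was higher and 4 were lower. The Gad2-Cre table lists 4 with any event type, of which 2 were higher and 2 lower. Tenm3, a teneurin and so a ligand of latrophilins, fell from 0.882 to 0.492 in a tandem event of the authors' deposited Emx1-Cre table. Unc5b, a netrin receptor of the family that also binds FLRT proteins, fell there from 0.952 to 0.574 for the first-named isoform of a mutually exclusive event, at a coverage of 21.0. Nrxn3, a presynaptic adhesion protein, fell from 0.731 to 0.467 in the authors' deposited Emx1-Cre table. The same Nrxn3 exon fell from 0.804 to 0.695 in the authors' deposited Gad2-Cre table.

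Of 20 genes of KDM1A, CoREST and CtBP complexes, 1 was listed in the Emx1-Cre and 2 in the Gad2-Cre table, all lower. Kdm1a, a histone demethylase, fell from 0.323 to 0.115 in Emx1-Cre and from 0.418 to 0.130 in Gad2-Cre neurons at the same exon in the authors' deposited tables. Ctbp1, a corepressor, fell from 0.387 to 0.268 in the authors' deposited Gad2-Cre table for its first-named isoform. Of 22 genes of stress and cell death at the endoplasmic reticulum, Itpr1, a calcium channel of that membrane, was listed in the Emx1-Cre table, from 0.934 to 0.409 for the first-named isoform of an alternative 5′ splice site event in the authors' deposited values. Of its 10 listed events there 9 were lower and 1 was higher in cKO, the latter a cassette exon at 0.00763 in controls and 0.515 in cKO, by the authors' deposited values. None of 24 genes of glycoprotein folding, Uggt1 included, had a listed event in either of the authors' deposited cKO tables. A gene without a listed event may be unchanged or too thinly covered.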

How the data were processed

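RNA of sorted embryonic cortical neurons and other mouse samples was sequenced after removal of ribosomal RNA or poly(A) selection, per the labels. The authors quantified splicing with Quantas on build mm10, per the labels. For the aligner, versions, strandedness and settings, nothing is stated in the labels. The deposited tables hold inclusion levels as a fraction from 0 to 1, a coverage signal and the authors' p-value and FDR, per the file headers, with 1 pooled level per group. The deposited difference equals group 1 minus group 2 within 3.0e-08. The first group was read as the control, or as Emx1-Cre among controls, from the labels, and control levels were the same in both tables at 307 and 323 shared events.

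Events were matched between tables by name, isoforms and gene with Python 3.11.15 and pandas 2.3.3, and positions came from the deposited intervals. Exons, reading frames and sequences came from GENCODE M21 on the same build, with slicing and motif counting tested on simulated data. No test was run, because no values per sample exist in the tables, and p-values across samples that may be technical replicates are the authors'. Members and gene lists were chosen with earlier results of these data known. The 4 genes were named at every listed event, the opposite event with the largest summed difference was described in full, and up to 4 genes per list were named by their largest difference, of which 1 is not reported here. Alternatives were stricter limits on FDR (0.01), difference (0.2) and coverage (50), the best-covered event per gene, and cassette exons only.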

Additional observations from a re-analysis of the deposited data

How the results depend on the processing

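The 24 listed events of the 4 genes became 20 at an FDR of at most 0.01, 20 at a difference of at least 0.2 and 15 at a coverage of at least 50. The 12 opposite events became 1 at that FDR in both cKO tables, 3 at that difference and 0 at that coverage, so no gene kept an opposite event under all 3 limits. Where the event with the highest summed coverage stood for each gene, Uggt2, Tmem214 and Zfp516 kept their event, and Adgrl3 was represented by the 196 nt exon, whose Emx1-Cre change was -0.119 and so reversed, with a Gad2-Cre change of -0.255. With cassette exons only, listed genes of the KDM1A, CoREST and CtBP complexes went from 2 to 1 and of the latrophilin list from 9 to 6, while the counts of 0 and 1 in the lists of the endoplasmic reticulum stayed, the 1 being Itpr1, whose largest difference then was a rise from 0.00763 to 0.515 in place of a fall. The search for YCAY tetramers in the intron bases beside the exons, over a longer or a shorter stretch, was not run, because no genome sequence was at hand. No paired analysis was possible because the tables hold 1 pooled level per group and no value per replicate. For the same reason no sample could be left out. Coverage was near the minimum of 20.0 at Zfp516, at the 44 nt exon and the alternative 5′ splice site event of Tmem214 and at the Adgrl3 tandem of 119 and 18 nt.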

Other observations

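The opposite pattern also occurred in 9 events of 7 other genes in the authors' deposited cKO tables, of which 8 rose in Emx1-Cre and fell in Gad2-Cre neurons. They lie in Add1, Eefsec, Miat, Osbpl1a, Rab4b, Vps16 and Zfyve9. Vps16, a subunit of complexes that tether membranes at endosomes and lysosomes, retained an intron at 0.216 in Emx1-Cre controls and 0.402 in cKO, and at 0.432 in Gad2-Cre controls and 0.302 in cKO, in the authors' deposited tables. Its coverage of 313.0 and 217.1 was the highest among the 21 opposite events. Zfyve9, an endosomal protein of TGF-beta signalling, went from 0.336 to 0.461 in Emx1-Cre and from 0.542 to 0.329 in Gad2-Cre neurons at a cassette exon in the authors' deposited tables, and so passed the Emx1-Cre control level. Miat, a long noncoding RNA, moved the other way, from 0.664 to 0.493 in Emx1-Cre and from 0.386 to 0.547 in Gad2-Cre neurons in the authors' deposited values. In these 9 events the gap between the classes was 0.206 to 0.423 in controls, smaller in cKO in all 9, and the order of the classes was turned in 5 of the 9. Of these 9, 2 events of Rab4b carry the same levels.

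Zfp516 combined a coverage of 21.0 and a change of 0.102 with an FDR of 1.92e-07 in the authors' deposited Gad2-Cre table. Among mutually exclusive events with a coverage of at most 30 in that table, 12 of 58 had a p at or under that of Zfp516, and among other types 17 of 339. In the authors' deposited Emx1-Cre table the counts were 8 of 83 and 19 of 386.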
